A study of Mus musculus with 12 samples.

Results

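The genes of glycolysis and of the response to low oxygen were followed in differentiated neurospheres, which are spheres of neural stem and progenitor cells that have been left to differentiate into neurons and glia. The set held 41 genes, chosen by name for their place in these pathways, out of 20887 genes named on the array. They were measured by 68 of 55681 probes, and 40 of the 41 were expressed, against 14330 expressed named genes in all. Expression was called for a probe where the scanner rated it well above background for 1 condition on 3 or more arrays out of the 4 in a comparison. Mxi1, a MYC antagonist, was the member left out, its only probe being well above background in 0 of 4 WT, 2 of 12 APP_WT, 1 of 4 BK_APP and 0 of 4 HOE_APP channels.

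Neurospheres were grown from the telencephalon of C57BL/6 mouse embryos at day 13. WT embryos carried no transgene, whereas those of APP_WT, BK_APP and HOE_APP all carried APPswe/PS1dE9, a mutant amyloid precursor protein that joins mouse and human sequence, along with a mutated presenilin 1 of human origin, both directed to neurons of the central nervous system. The name APP_WT thus stands for transgenic cells without treatment. BK_APP received bradykinin (BK), a peptide ligand of the kinin B2 receptor, and HOE_APP received HOE-140, a peptide antagonist of that receptor, both at 1 µM on days 0, 3 and 6 of differentiation, and all RNA was taken on day 7. Each comparison, APP_WT with WT, BK_APP with APP_WT and HOE_APP with APP_WT, was made on 4 arrays with 2 dyes, of which replicates 3 and 4 had the dyes swapped. The 2 treatments share the APP_WT controls with each other, and APP_WT is also the numerator of the first comparison. The channel labels of HOE_APP arrays carry 1 treatment name in both colors, so the direction is likely only, and these values are also given with the sign turned.

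Glycolysis splits glucose into pyruvate, which lactate dehydrogenase turns into lactate when the cell does not pass it on to the mitochondria. Many of its enzymes, but not all, are classic targets of the hypoxia-inducible factor (HIF). The same holds for the transporters that bring glucose in and carry lactate out. HIF is a pair of an oxygen-labile alpha subunit and a stable beta subunit. In oxygen the EGLN enzymes hydroxylate the alpha subunit and mark it for destruction, so that its activity is set largely by protein level and not by its mRNA. In the brain, astrocytes are known for a high glycolytic rate and lactate export, and neurons for lactate use and oxidation.

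HIF binds DNA at the core letters ACGTG or GCGTG, and the promoters of the members were searched for these on both strands over the 250 bases before the start of the gene, counting matches that overlap each other, as the 2 strands do in CACGTG. RefSeq promoters of mouse build GRCm38.p6 were at hand for 37 of the 41 members, and 33 of the 37 (89.2%) held a match. A gene with several listed starts had a window for each, and counted where any of them held a match. Of all 27025 genes with an entry, 41.5% did so. Of all 32851 promoter windows of that length, 38.6% held a match, against 41 of 52 windows of the members (78.8%), and 16.7% of all windows held at least 2, against 26 of the 52. A match was present for 6 of the 6 members that were lower in APP_WT than in WT, and for 5 of 8 with an entry that were higher. For Vegfa, among the lower ones, the window at chr17:46025164-46025413 held it and that at chr17:46032378-46032627 did not. Hk1 and Pfkm, among the higher ones, also had a window without a match. A match was also present for 22 of 23 that were not called, among them Mxi1, which was not expressed and so not tested. The promoters below belong to the 5 genes whose change between APP_WT and WT was kept under every alternative processing, and to Ankrd37 and Car9, classic HIF targets that changed in opposite directions. They are written 5′ to 3′ on the strand of the gene, with the matched letters in capitals, where CACGT and CACGC are the 2 cores read on the other strand. Hif1a lies at chr12:73907617-73907866, plus strand, Hk2 at chr6:82774455-82774704, minus strand, Ddit4 at chr10:59951771-59952020, minus strand, Ankrd37 at chr8:45999851-46000100, minus strand, Car9 at chr4:43506776-43507025, plus strand, Car12 at chr9:66713436-66713685, plus strand, and Eno2 at chr6:124769674-124769923, minus strand. Car12 and Eno2, which rose, have no match in this window and so no capitals.
Hif1a: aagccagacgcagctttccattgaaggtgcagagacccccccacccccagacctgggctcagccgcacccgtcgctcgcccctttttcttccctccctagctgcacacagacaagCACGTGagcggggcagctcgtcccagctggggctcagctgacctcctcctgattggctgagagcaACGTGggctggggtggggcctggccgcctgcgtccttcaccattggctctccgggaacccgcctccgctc
Hk2: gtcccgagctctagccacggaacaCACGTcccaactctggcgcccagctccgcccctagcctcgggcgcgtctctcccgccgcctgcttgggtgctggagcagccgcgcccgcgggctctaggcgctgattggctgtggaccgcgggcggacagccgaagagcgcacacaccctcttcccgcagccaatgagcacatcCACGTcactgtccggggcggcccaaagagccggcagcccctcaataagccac
Ddit4: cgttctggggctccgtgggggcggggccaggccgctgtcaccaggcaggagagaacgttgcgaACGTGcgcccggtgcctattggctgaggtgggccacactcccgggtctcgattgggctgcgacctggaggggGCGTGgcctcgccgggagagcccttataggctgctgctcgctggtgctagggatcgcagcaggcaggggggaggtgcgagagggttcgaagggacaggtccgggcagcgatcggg
Ankrd37: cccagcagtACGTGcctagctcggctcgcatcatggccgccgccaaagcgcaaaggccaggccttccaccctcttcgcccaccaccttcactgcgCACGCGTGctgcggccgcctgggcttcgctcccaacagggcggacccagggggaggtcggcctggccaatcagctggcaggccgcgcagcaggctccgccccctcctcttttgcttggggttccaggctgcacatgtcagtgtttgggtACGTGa
Car9: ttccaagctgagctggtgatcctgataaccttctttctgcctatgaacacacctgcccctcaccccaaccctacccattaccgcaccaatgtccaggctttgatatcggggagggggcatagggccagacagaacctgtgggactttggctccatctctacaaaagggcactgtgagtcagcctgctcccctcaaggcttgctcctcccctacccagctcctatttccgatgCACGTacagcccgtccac
Car12: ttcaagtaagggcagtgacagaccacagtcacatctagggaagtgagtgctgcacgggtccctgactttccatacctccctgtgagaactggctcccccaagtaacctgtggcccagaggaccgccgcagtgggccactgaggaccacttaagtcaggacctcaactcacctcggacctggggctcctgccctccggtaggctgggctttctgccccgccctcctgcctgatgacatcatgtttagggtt
Eno2: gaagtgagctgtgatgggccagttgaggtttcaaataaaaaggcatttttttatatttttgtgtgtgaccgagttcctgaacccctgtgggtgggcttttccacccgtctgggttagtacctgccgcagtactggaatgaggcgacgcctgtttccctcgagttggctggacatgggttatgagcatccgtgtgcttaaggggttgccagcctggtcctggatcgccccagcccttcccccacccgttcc

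Between APP_WT and WT the set moved in both directions. The carbonic anhydrase gene Car12, the neuronal enolase Eno2, the muscle-type phosphofructokinase Pfkm and lactate dehydrogenase B (Ldhb) were higher in APP_WT. Lower were Hk2, Ankrd37, Ddit4 and Hif1a itself. Car9, also a carbonic anhydrase gene, was called higher from a dim probe. That probe was well above background in 2 of 4 WT channels and passed the filter through APP_WT, where it is high. Of the 40 expressed members, 15 passed an adjusted p of 0.05 in limma, 9 of them higher and 6 lower. Of all 14330 expressed named genes 25.0% passed, 17.0% higher and 8.03% lower, and 46.2% had a fold change below 0. The counts of the role groups below stand beside these shares. The median log2 fold change of the members was 0.034 and that of all expressed named genes 0.015. On all 4 arrays 7 members were above 0 and 5 below, against 20.9% and 12.5% of all named genes. On single arrays the median of the members was 0.10, 0.20, 0.0051 and −0.12 on replicates 1 to 4. When each array was centred on its median instead of by loess, which follows intensity, 13 members passed, 3 higher and 10 lower, and 9 of the 15 were among them. The median of the members then became −0.096, beside −0.065 for all expressed probes.

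**Figure D1:**
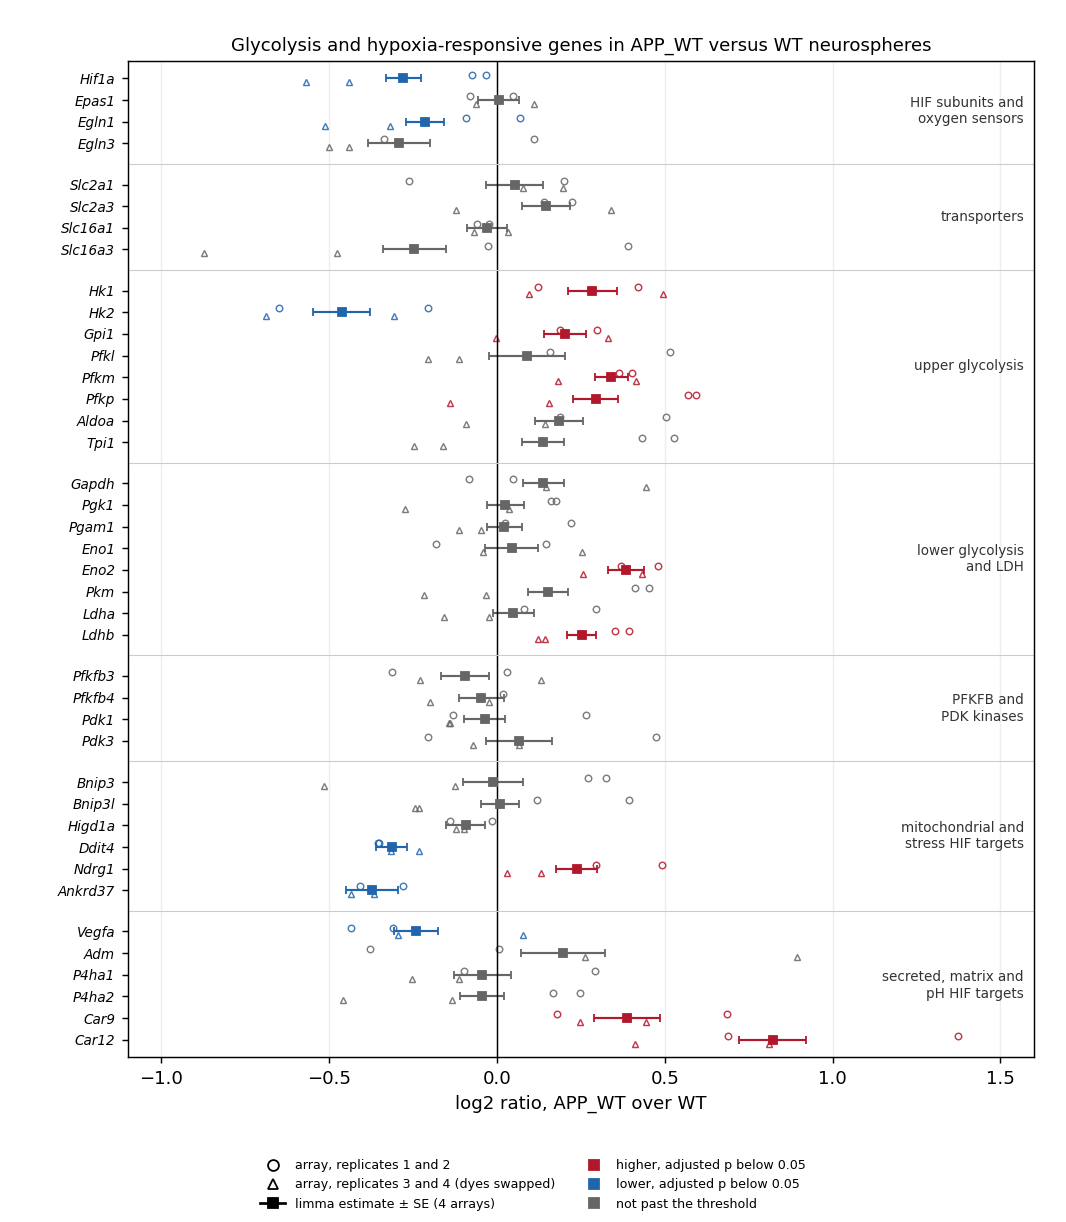
Log2 ratio of APP_WT over WT for the 40 expressed members, grouped by role. Circles are replicates 1 and 2, triangles replicates 3 and 4 with the dyes swapped, and squares the limma estimate with its SE, red where the gene was higher and blue where it was lower at an adjusted p of 0.05. Car12 stands farthest to the right at 0.82 and Hk2 farthest to the left at −0.46. Under median centring 3 members are higher and 10 lower in place of 9 and 6.

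HIF subunits and oxygen sensors gave no increase. Of 4 genes, 2 fell and 2 did not pass, with a group median of −0.25, and under median centring 3 were lower. Hif1a, the oxygen-labile alpha subunit, had log2 ratios of −0.033, −0.073, −0.57 and −0.44 on replicates 1 to 4. All 4 lay below 0, close to it on replicates 1 and 2 and far from it on the 2 arrays with swapped dyes. Its level fell by 17.6% (−0.28 ± 0.053 SE on the log2 scale, adjusted p = 0.00404). Over 15 alternatives its fold change ran from −0.41 to −0.25 with adjusted p from 0.00236 to 0.0499. Egln1, the main oxygen-sensing hydroxylase, gave 0.069, −0.093, −0.32 and −0.51, so that replicate 1 stood above 0 and the 2 swapped arrays lowest. It fell by 13.8% (adjusted p = 0.0230), a call that was lost without replicate 2 (adjusted p = 0.130) or without replicate 4 (0.131). Egln3, a hydroxylase whose own gene is a HIF target, had 3 of 4 arrays below 0 and did not pass (−0.29 ± 0.094 SE, adjusted p = 0.0533), though its dimmer probe did (−0.26, adjusted p = 0.0398) and so did the brighter probe without replicate 2 (−0.40, adjusted p = 0.0221) and under median centring (−0.38, adjusted p = 0.00443). Epas1, which encodes HIF-2 alpha, was at 0.0043 (adjusted p = 0.974), with its other probes at 0.20 and 0.052 and no call from any.

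None of the 4 transporters passed the test. Slc2a1 and Slc2a3, the GLUT1 and GLUT3 glucose carriers, stood at 0.052 ± 0.085 SE and 0.14 ± 0.072 SE, with 1 of 4 arrays below 0 for each. Without replicate 4 Slc2a3 passed (0.26, adjusted p = 0.0285). Slc16a1 (MCT1), a lactate and pyruvate carrier, read −0.060, −0.023, 0.033 and −0.069 on the 4 arrays, the narrowest spread of the group. Its probe was well above background in all 4 WT channels and in 10 of 12 APP_WT channels. Slc16a3 (MCT4), the lactate exporter of glycolytic cells, gave −0.027, 0.39, −0.48 and −0.87, with replicate 2 above 0 and the swapped arrays lowest. Its estimate of −0.25 ± 0.094 SE missed the threshold (adjusted p = 0.0969), while its dimmer probe passed at −0.33 (adjusted p = 0.0255), as did the brighter one with the replicate number as a block (adjusted p = 0.0375), without replicate 2 (−0.35, adjusted p = 0.0476) and under median centring (−0.33, adjusted p = 0.0177).

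Among the 8 genes of upper glycolysis, 4 rose, 1 fell and 3 did not pass, with a median of 0.19 and 7 of 8 above 0. Under median centring the same group had 0 higher and 1 lower, a median of 0.0025 and 4 above 0. All expressed probes then had a median of −0.065, against 0.0039 under loess, so the group stayed above them but by less. Hk2, the inducible hexokinase that HIF and insulin act on, was the exception in both, with log2 ratios of −0.65, −0.21, −0.31 and −0.69. All 4 arrays lay below −0.2, with replicates 1 and 4 lowest, and the 2 dye orientations overlapped. Hk2 fell by 27.5% (−0.46 ± 0.084 SE, adjusted p = 0.00309), with a range over the alternatives of −0.82 to −0.35. Hk1, the hexokinase that most brain cells use, gave 0.12, 0.42, 0.50 and 0.094. It was above 0 on all 4 arrays, most on replicates 2 and 3, and rose by 21.7% (0.28 ± 0.073 SE, adjusted p = 0.0208). Hk1 lost the call without replicate 2 (0.21, adjusted p = 0.131) or replicate 3 (0.18, adjusted p = 0.144) and under median centring (0.12, adjusted p = 0.247).

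The 3 phosphofructokinase subunits, which form the enzyme that commits sugar to glycolysis, differed among themselves. Pfkm read 0.40, 0.36, 0.41 and 0.18 and rose by 26.6% (0.34 ± 0.049 SE, adjusted p = 0.000802). Its 4 arrays lay close together and all above 0, and the call was lost only under median centring (0.18, adjusted p = 0.112) among the 15 alternatives. Pfkp, the platelet type that is abundant in brain, read 0.59, 0.57, 0.15 and −0.14, high on replicates 1 and 2 and lower on the swapped arrays. It rose by 22.6% (adjusted p = 0.0108), but not without replicate 3 (0.22, adjusted p = 0.0816) nor under median centring (0.19, adjusted p = 0.130), and its dimmer probe was at 0.079. Pfkl, the liver type, was at 0.088 ± 0.11 SE and did not pass.

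Gpi1, the isomerase between glucose and fructose phosphates, gave 0.19, 0.30, 0.33 and −0.0018, with replicate 4 at the level of WT. It was called at 0.20 ± 0.062 SE (adjusted p = 0.0443) and was the least stable of the 15, since 12 of 15 alternatives lost it. Among these were the replicate block (adjusted p = 0.0585), the deposited log2 ratios (0.19, adjusted p = 0.0623), median centring (0.010, adjusted p = 0.944) and the fits without replicate 1 (0.23, adjusted p = 0.0618), 2 (0.18, adjusted p = 0.177) or 3 (0.12, adjusted p = 0.264). Aldoa, the main aldolase, and Tpi1, the triose isomerase, were at 0.18 ± 0.072 SE and 0.14 ± 0.063 SE and did not pass. For Tpi1 both unswapped arrays were above 0.4 and both swapped arrays below −0.1. Aldoa passed without replicate 1 (0.26, adjusted p = 0.0441).

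In lower glycolysis all 8 genes had estimates above 0, where 46.2% of all expressed named genes lay below 0. Of the 8, 2 rose and 6 did not pass, and the median was 0.093. The share called was 25.0%, the same as among all expressed named genes. Under median centring 2 of the 8 stayed above 0, 1 was called higher and the median was −0.10. Eno2, the neuronal enolase, read 0.37, 0.48, 0.43 and 0.25. All 4 arrays lay above 0.2 with no gap between the dye orientations, and Eno2 rose by 30.5% (0.38 ± 0.053 SE, adjusted p = 0.000599), with a range of 0.25 to 0.43 over the alternatives. Eno1, the enolase of most cells, was at 0.044 (adjusted p = 0.749). Ldhb, the lactate dehydrogenase subunit that favors lactate use, read 0.39, 0.35, 0.12 and 0.14, higher on replicates 1 and 2 and above 0 on all 4. It rose by 19.1% (0.25 ± 0.043 SE, adjusted p = 0.00228), although under median centring it was at 0.068 (adjusted p = 0.622). Ldha, the subunit that favors lactate formation and a HIF target, gave 0.081, 0.30, −0.023 and −0.16, on both sides of 0, and did not pass (adjusted p = 0.639).

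Gapdh, which the study also used as the reference gene of its RT-PCR, had 1 of 4 arrays below 0 and an estimate of 0.14 ± 0.061 SE (adjusted p = 0.148). Its 7 probes lay between 0.13 and 0.23 and none passed, and under median centring its brightest probe was at −0.064. Pgk1 and Pgam1, which handle the 3-carbon phosphates after it, were at 0.025 and 0.021. Pkm, pyruvate kinase, read 0.41, 0.45, −0.033 and −0.22, above 0.4 on both unswapped arrays and below 0 on both swapped ones, and was not called (0.15 ± 0.060 SE). The same turn with the dyes was common, as 18 of 39 members without a missing value had opposite mean signs in the 2 orientations, against 41% of all expressed named genes.

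The kinases that switch glycolysis and pyruvate entry gave no call. Pfkfb3 and Pfkfb4, which make the activator of phosphofructokinase, were at −0.096 and −0.047. Pfkfb4 had no value on replicate 2, so its estimate rests on 3 arrays. Pdk1 and Pdk3, which shut the pyruvate dehydrogenase complex and are HIF targets, were at −0.037 and 0.065. Under median centring Pfkfb3 was called lower (−0.25, adjusted p = 0.0275).

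HIF targets of mitochondria and stress were split, with 1 higher, 2 lower and 3 not called of the 6 expressed. Ddit4 (REDD1), an inhibitor of mTORC1 under low oxygen and glucocorticoids, had log2 ratios of −0.36, −0.35, −0.23 and −0.32. The 4 arrays were alike and below −0.2, and Ddit4 fell by 19.6% (−0.31 ± 0.046 SE, adjusted p = 0.000868), with a range of −0.50 to −0.29 over the alternatives. Ankrd37, an ankyrin repeat protein and strongly HIF-induced gene, read −0.41, −0.28, −0.37 and −0.44, with the dye orientations overlapping and all arrays low. Ankrd37 fell by 22.8% (−0.37 ± 0.077 SE, adjusted p = 0.00698) and lost the call only with the scanner's processed signals (−0.37, adjusted p = 0.101). Ndrg1, a stress-response gene, read 0.49, 0.30, 0.13 and 0.029, highest on replicates 1 and 2. It rose by 17.8% (adjusted p = 0.0216) but not without replicate 1 (0.19, adjusted p = 0.106), 3 (0.21, adjusted p = 0.107) or 4 (0.26, adjusted p = 0.0534), nor under median centring (0.10, adjusted p = 0.459). Bnip3 and Bnip3l, receptors for the removal of mitochondria, were at −0.011 and 0.0088, with probes on both sides of 0 for each. Higd1a, a respiratory chain factor, was at −0.094 and did not pass, but was called lower under median centring (−0.27, adjusted p = 0.0421).

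Of the 6 genes for secreted, matrix and pH functions, 2 rose, 1 fell and 3 did not pass. Car12, a membrane carbonic anhydrase that hydrates CO2 at the cell surface, gave 0.69, 1.37, 0.81 and 0.41. All arrays lay above 0.4 and replicate 2 was highest. Car12 was 1.77-fold higher in APP_WT (0.82 ± 0.10 SE, adjusted p = 0.000259), the largest change of the 40 members, with a range of 0.65 to 1.08 over the alternatives. Car9, a second enzyme of that kind and one of the most specific HIF targets, gave 0.69, 0.18, 0.44 and 0.25, above 0 on all 4 arrays with replicate 1 highest. It was 1.31-fold higher (0.39 ± 0.099 SE, adjusted p = 0.0196) from a dim probe, which was well above background in 2 of 4 WT and in 3 of the 4 APP_WT channels beside them and so passed the filter through APP_WT, where it is high. Its fold change on the log2 scale ran from 0.26 to 1.19 over the alternatives (1.19 with the scanner's processed signals and 1.04 with the deposited log2 ratios), and the call was lost without replicate 1 (0.26, adjusted p = 0.107) or 3 (0.34, adjusted p = 0.109). Vegfa, the endothelial growth factor, read −0.31, −0.44, 0.078 and −0.30, with replicate 3 above 0 and the other arrays below −0.2. It fell by 15.4% (adjusted p = 0.0279, with its second probe called at −0.31), a call lost without replicate 2 (−0.21, adjusted p = 0.127) or 4 (−0.15, adjusted p = 0.174). Adm, a vasodilator peptide and HIF target, read −0.38, 0.0053, 0.89 and 0.26, scattered on both sides of 0, and did not pass. P4ha1 and P4ha2, the collagen prolyl hydroxylases, were at −0.044 and −0.044.

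**Figure D2:**
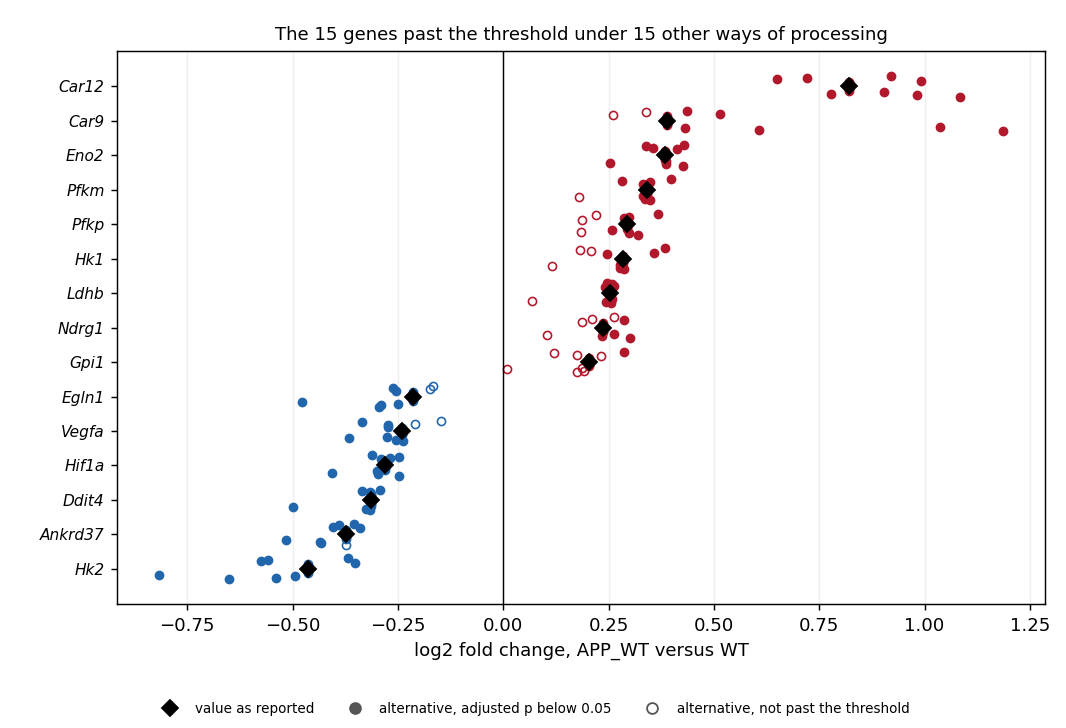
Log2 fold change of the 15 members called between APP_WT and WT, as reported (diamond) and under 15 alternative ways of processing (circles, open where the adjusted p was above 0.05). Hif1a, Hk2, Eno2, Ddit4 and Car12 kept the call under all 15, and Gpi1 lost it under 12. No point changed the side of 0.

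Beside the losses given gene by gene, Egln1, Gpi1, Pfkp, Ndrg1 and Vegfa lost the call when the dye coefficient was dropped, Gpi1 and Pfkp when the probes of a gene were averaged (Pfkp at 0.19, adjusted p = 0.0865), and Egln1, Gpi1 and Vegfa when no filter on dim probes was set. With each slide fitted alone Hk1, Egln1, Gpi1, Pfkp, Ldhb, Ndrg1, Vegfa and Car9 were not called.

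The other genes of the pathway were read from 6 lists with 152 expressed genes, of which 24 were higher and 11 lower, against 25.0% called among all expressed named genes. With the replicate number as a block 18 were higher and 5 lower, and under median centring 8 and 16. The replicate block takes 1 sign for all comparisons, though arrays of APP_WT against WT deviated opposite to same-numbered treatment arrays. A block by the APP_WT sample, chosen after seeing the data, called more genes than the main fit, as given in the last section. Other glycolysis genes, mostly isoforms and enzymes beyond the core, had 7 higher and 0 lower of 19 expressed, with a median of 0.22. Under median centring this list had 3 higher and 2 lower. The genes of pyruvate entry and the citric acid cycle had 7 higher and 3 lower of 30 (median 0.069), the pentose phosphate pathway 2 and 1 of 10 (0.095), and the respiratory chain subunits 1 and 0 of 43 (0.040). Other HIF targets had 6 higher and 5 lower of 34 (0.0054), and other HIF regulators 1 and 2 of 16 (−0.041). Under median centring the medians were −0.097 for pyruvate entry and the citric acid cycle, −0.057 for the pentose phosphate pathway, −0.13 for the respiratory chain, −0.063 for other HIF targets and −0.20 for other HIF regulators (0 higher, 4 lower), where that of all expressed probes was −0.065.

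**Figure D3:**
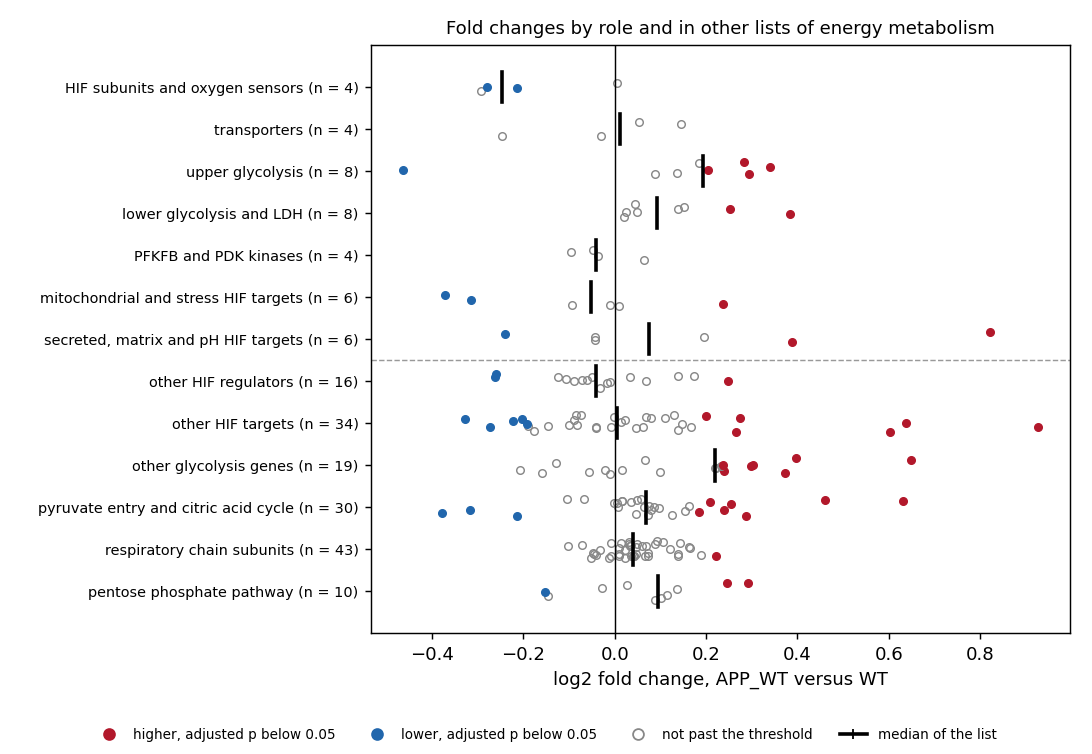
Log2 fold change of APP_WT over WT for every expressed gene of the 7 role groups of the set and of 6 other pathway lists. Points are genes, colored where called higher or lower, and bars are medians. Upper glycolysis has its median at 0.19 and the respiratory chain subunits theirs at 0.040. Under median centring the median of upper glycolysis is 0.0025, beside −0.065 for all expressed probes.

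By size, the largest increases in those lists were Tgfb3, Pdk4 and Loxl2. Tgfb3, a growth factor of the TGF-beta family, read 1.06, 0.94, 1.00 and 0.71 and rose by 0.93 on the log2 scale (SE 0.055, adjusted p = 1.51e-06). Pdk4, the pyruvate dehydrogenase kinase of fasting, read 0.97, 0.77, 0.54 and 0.31 and rose by 0.65 (adjusted p = 5.75e-05). Loxl2, a matrix cross-linking oxidase, rose by 0.64 (adjusted p = 0.000511) and was above 0.5 on all 4 arrays. The largest decreases were those of the aconitase and iron regulator Aco1 (−0.38, adjusted p = 0.00919), the lipid droplet gene Hilpda (−0.33, adjusted p = 0.0191), and the cytosolic isocitrate dehydrogenase Idh1 (−0.32, adjusted p = 0.0133). Aco1 and Hilpda were below 0 on all 4 arrays, and Idh1 on 3.

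Cell type markers moved along with the genotype, and their part in the changes above was not tested. Of 14 expressed microglial markers out of 16, 13 were higher and 0 lower in APP_WT, against 25.0% of all expressed named genes called, with a median of 1.49. For 8 of the 14 the probe was well above background in at most 2 of 4 WT channels, so that they passed the filter through APP_WT, where they are high. The 6 that were well above background in all WT channels had a median of 1.17, with 5 called higher. The summed signal of the 13 markers without a missing value was 9810 to 12000 in the WT channels and 13000 to 17900 in the APP_WT channels. The microglial Adgre1 was well above background in 0 of 4 WT channels and in all 12 of APP_WT, while P2ry12 was not expressed. Of 10 astrocyte markers 7 were higher and 0 lower (median 0.28), with summed signals of 103000 to 126000 and 138000 to 157000, and of 12 neuronal markers 2 were higher and 4 lower (median −0.019), with 118000 to 137000 and 109000 to 127000. The fluorescence sums of WT and APP_WT did not overlap for microglia and astrocytes and did for neurons. In such a sum the bright markers weigh most, so it need not follow the median fold change of a list. For microglia the median sum was 10900 in WT and 15400 in APP_WT channels, beside the median log2 fold change of 1.49. The 12 APP_WT channels include those of the BK_APP and HOE_APP arrays on the other slide, where the treatments share their controls. They are thus not 12 independent samples, and no matching share over all genes was taken. The aldolase Aldoc is in both the astrocyte and the other glycolysis list. In RNA of a mixed culture, fewer cells of a type and less RNA per cell cannot be told apart. All 12 neuronal and 10 astrocyte markers were expressed, and 4 of 8 endothelial ones, with Cldn5 and Erg well above background in no channel. Of the remaining lists, against the 25.0% of all expressed named genes, there were 1 higher and 1 lower of 10 oligodendrocyte markers, 1 and 0 of 4 endothelial, 1 and 3 of 8 pericyte and fibroblast, and 1 and 2 of 8 cycling and progenitor markers.

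BK did not move any of the set past the threshold. In BK_APP against APP_WT 0 of 40 members and 0% of the 14330 genes had an adjusted p under 0.05 in limma, and the smallest over all probes was 0.967. Without adjustment 4.79% of all named genes and 2 members had a p under 0.05. These were Slc16a1, which read 0.33, −0.0025, 0.083 and 0.16, and Gpi1, which read −0.061, −0.24, −0.12 and −0.17. Slc16a1 was above 0 on 3 arrays and at 0 on replicate 2 (0.14, 95% interval 0.010 to 0.27, adjusted p = 0.967), and Gpi1 was below 0 on all 4 (−0.15, 95% interval −0.29 to −0.011, adjusted p = 0.967). The 95% intervals of all 40 members lay within 0.5 of 0 on the log2 scale, and 38 held 0.

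The estimates of the set in BK_APP leaned below 0, by little and in a way that depended on the centring. They were below 0 for 32 of 40 members, against 49.5% of all named genes, with a median of −0.045 against 0.00075. Under median centring 10 of 40 were below 0 and the median was 0.026, beside 0.037 for all expressed probes. The sign thus turned, but the median stayed below that of all expressed probes, which was −0.0046 under loess. Upper glycolysis had 8 of 8 below 0 (median −0.089) and lower glycolysis 7 of 8 (−0.052), which became 4 (−0.0089) and 1 (0.044) under median centring. Eno1, Eno2, Ldha, Aldoa, Gpi1 and Pfkm were below 0 on all 4 arrays, 6 members of 40, against 4.55% of all named genes. For Eno2, −0.064 ± 0.053 SE in BK_APP stood beside 0.38 in APP_WT, and for Pfkm −0.071 ± 0.049 SE beside 0.34, with APP_WT shared as denominator and numerator. Car12 was at −0.070 ± 0.10 SE, Hk2 at −0.14 ± 0.084 SE and Hif1a at 0.045 ± 0.053 SE. No marker passed the test, with the microglial median at 0.16 and 11 of 14 microglial markers above 0. Below 0 were 12 of 12 neuronal markers (median −0.090), 8 of 10 astrocyte markers (−0.046) and 6 of 10 oligodendrocyte markers (−0.013). Of the cycling and progenitor markers 6 of 8 were above 0 (0.042). The markers were read under loess only.

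**Figure D4:**
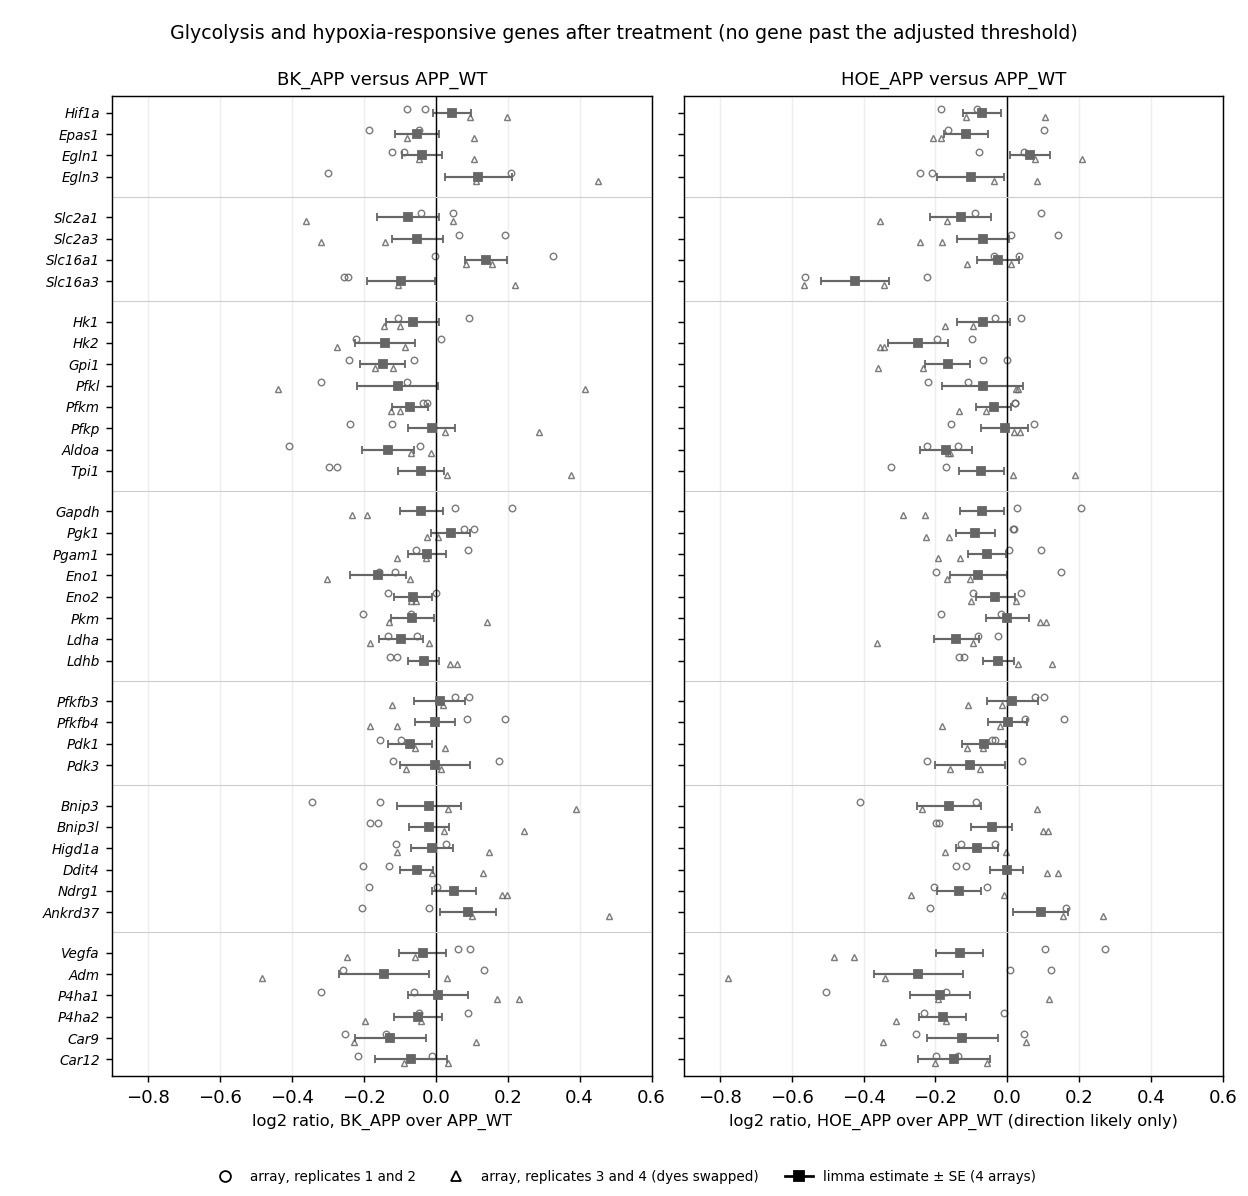
Log2 ratio of BK_APP over APP_WT (left) and of HOE_APP over APP_WT (right) for the 40 expressed members, drawn as circles for replicates 1 and 2, triangles for replicates 3 and 4 with the dyes swapped, and squares for the limma estimate with its SE. No gene is called in either panel. Slc16a3 stands lowest with HOE-140 at −0.42, and the direction of that panel is likely only. Most squares lie left of 0. Under median centring both medians turn above 0 but stay below those of all expressed probes.

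HOE-140 gave no call either. In HOE_APP against APP_WT 0 of 40 members and 0% of all named genes passed in limma, and the smallest adjusted p over all probes was 0.898. Without adjustment 7 members had a p under 0.05, all of them lower in the likely direction, against 4.91% of all named genes in either direction and 2.42% lower. Slc16a3, the lactate exporter, read −0.56, −0.22, −0.34 and −0.57 on replicates 1 to 4. Each array was below −0.2, with no order by dye, and the estimate was −0.42 (95% interval −0.63 to −0.22, adjusted p = 0.924). Its dimmer probe gave −0.36 and was not called either (adjusted p = 0.924). With the sign turned the brighter probe is at 0.42.

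Hk2 read −0.098, −0.20, −0.34 and −0.35 with HOE-140, below 0 on all 4 arrays and lowest on the swapped ones (−0.25, 95% interval −0.43 to −0.063, adjusted p = 0.924). Gpi1, Aldoa and Ldha, of glycolysis, were at −0.17, −0.17 and −0.14, each below 0 on all 4 arrays. Replicate 1 of Gpi1 was barely below 0 (log2 levels of 15.1208 with HOE-140 and 15.1215 in APP_WT). Aldoa was the steadiest of these genes at −0.14, −0.22, −0.16 and −0.16. P4ha2 was at −0.18 and also below 0 on all 4, whereas P4ha1 at −0.19 was above 0 on replicate 3. All of these had an adjusted p of 0.924. With the sign turned they are at 0.25 for Hk2, 0.17 for Gpi1, 0.17 for Aldoa, 0.14 for Ldha, 0.18 for P4ha2 and 0.19 for P4ha1.

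Of the whole set, 36 of 40 members were below 0 in HOE_APP, against 47.3% of all named genes, and 10 were below 0 on all 4 arrays, against 4.23%, both of which read as above 0 when the sign is turned. The median was −0.077 against 0.0043, but 0.036 with 14 below 0 under median centring (0.076 for all expressed probes), and 0.077 with 4 below 0 when the sign is turned. Upper and lower glycolysis each had 8 of 8 below 0 (medians −0.071 and −0.064), which became 3 and 0 under median centring (0.051 and 0.086), and 0 and 0 when the sign is turned (0.071 and 0.064). The 6 genes for secreted, matrix and pH functions were all below 0 under both (−0.16 and −0.11) and all above 0 when the sign is turned (0.16), with Car12 at −0.15 ± 0.10 SE and Vegfa at −0.13 ± 0.066 SE. Hif1a was at −0.070 ± 0.053 SE and Eno2 at −0.033 ± 0.053 SE. Of the 40 intervals 38 lay within 0.5 of 0 and 33 held 0. In the likely direction all 14 microglial markers were below 0 with a median of −0.078, and none passed. Astrocyte markers were below 0 for 9 of 10 (median −0.094) and oligodendrocyte markers for 8 of 10 (−0.050). Neuronal markers were below 0 for 6 of 12 (0.013), and cycling and progenitor markers for 1 of 8 (0.040). These marker values were taken under loess only, and their signs turn with the direction of HOE_APP.

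BK and HOE-140, an agonist and an antagonist of 1 receptor at the same dose and days, were compared directly for all 40 members. Taken as BK_APP minus HOE_APP, the difference passed for 0 of 40 members and 0% of named genes in limma. Without adjustment 2.96% of named genes and 1 member had a p under 0.05. That member was Slc16a3, at −0.096 with BK and −0.42 with HOE-140, a difference of 0.33 (95% interval 0.033 to 0.62, adjusted p = 1.000). With the HOE_APP sign turned the difference is −0.52. The intervals of the other 39 members held 0, and 38 of the 40 lay within 0.5 of it. Their widths to either side ran from 0.14 to 0.39 with a median of 0.20. When same-numbered BK_APP and HOE_APP arrays were paired in a fit of those 8 arrays, added after seeing the data, these widths were 0.13 to 0.28 with a median of 0.14, 0 members passed again, and 35 of 40 intervals held 0. The 5 that did not were those of Slc16a3, P4ha1, Ndrg1, Bnip3 and Pgk1, all above 0, where 9.02% of all named genes had an unadjusted p under 0.05. Slc16a3 had pair differences of 0.32, −0.033, 0.56 and 0.46, with 1 pair below 0 (95% interval 0.16 to 0.49, adjusted p = 0.402). P4ha1 had 0.11, 0.18, 0.11 and 0.36, above 0 in all 4 pairs (95% interval 0.046 to 0.34, adjusted p = 0.505). Its dimmer probe lay on the other side of 0, with a difference of −0.049 in the fit without pairing. Of the 40 members, 4 were above 0 in all 4 pairs, against 9.49% of all named genes. In all 4 pairs 1 member was below 0, against 9.65%. All of these differences take the likely direction of HOE_APP.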

How the data were processed

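RNA of differentiated neurospheres (100 ng a sample) was compared on 12 Agilent SurePrint G3 mouse arrays in 2 colors, 4 for each of 3 comparisons, with the dyes swapped on replicates 3 and 4. For every array the authors deposited what the scanner software wrote, with median spot and background intensity in each channel, not normalized (Feature Extraction 11.0.1.1 per the file headers, another version than in the study's methods), and a log2 ratio table of 12 columns. That log2 table of the authors has the scale of the scanner's processed log ratio, and its centring software is not given in the sources used here. Its sign is treated over untreated, which for HOE_APP is the likely direction only. No column was left unused. Groups came from the sample labels. The study's design calls the 4 samples of a group biological replicates.

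Here the median intensities were background-corrected (limma 3.58.1, normexp, offset 50) and loess-normalized (span 0.3) in R 4.3.3, with weight 0 for the 3671 control and uneven spots, and spots of a probe were averaged. Ratios were turned to APP_WT over WT or treated over APP_WT. One limma model over 12 arrays, with 2 coefficients a comparison (its mean and its dye effect) (6 residual degrees of freedom) gave Benjamini-Hochberg adjusted p-values over all 29361 expressed probes, of which 461 had a missing value. Values beside ± are SE, and intervals are 95% moderated intervals of that model. A gene was represented by its brightest expressed probe, named through RefSeq accessions, which gave 1 name to 27509 probes. The resampling tests of the study's methods were not run. The fit was tested on simulated data with noise drawn separately for each array, which leaves out the APP_WT controls that arrays share.

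Each comparison lay within 1 of 2 slides, APP_WT with WT on the one and both treatments on the other. Arrays of one dye orientation correlated at 0.53 to 0.61 over probes in APP_WT against WT, and opposite ones at 0.24 to 0.46; for BK_APP these were 0.24 to 0.28 and −0.32 to −0.11, and for HOE_APP 0.34 to 0.43 and −0.32 to −0.19. Same-numbered BK_APP and HOE_APP arrays deviated together (r of 0.52 to 0.68), so that numbers pair the arrays of the 2 treatments, while those of APP_WT against WT deviated the other way (r of −0.60 to −0.30), where APP_WT is the numerator. A block by replicate number was an alternative, as were 14 others for APP_WT against WT, among them leaving out each array. The block by replicate number takes the same sign in every comparison, against the opposite deviations of APP_WT against WT. The block by the APP_WT sample turns the sign for that comparison. The share of spots well above background was 45.2 to 60.1% a channel, and 1 spot was saturated. The number of arrays limits the precision.

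All members could be named, those past the threshold first, and at most the 3 largest increases and decreases of the other lists. The members and lists were chosen with earlier results of these data known.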

Additional observations from a re-analysis of the deposited data

Results flagged for a closer look

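Of 119 groups of 4 arrays, 1 for each member and comparison without a missing value, 3 had an array far from the other 3 by Dixon's test, where chance gives about 1 in 20. Aldoa in BK_APP had replicate 2 at −0.41 against −0.068 to −0.013 on the others (gap over range 0.861), so most of its estimate comes from that array. Epas1 in HOE_APP had replicate 1 at 0.10 against −0.21 to −0.17 (0.866). Pdk1 in APP_WT against WT had replicate 1 at 0.26 against −0.14 to −0.13 (0.973). None of the 3 was called, and the causes were not tested. No member was on opposite sides of 0 on all 4 arrays of BK_APP and all 4 of HOE_APP.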

How the results depend on the processing

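The count of 15 members called between APP_WT and WT was 13 to 17 under 8 of the alternatives, 10 without the dye coefficient, 12 without a filter on low probes, and 7 (3 higher, 4 lower) with each slide fitted alone, which leaves fewer residual degrees of freedom. Without 1 array it was 10 to 13. The replicate block kept 14 of the 15 and lost only Gpi1. The 35 called genes of the other pathway lists became 23 with the replicate block, 21 without the dye coefficient, 11 with each slide alone, 20 to 30 without 1 array, and 53 with a block by the APP_WT sample, chosen after seeing the data. Median centring turned Aldoa (−0.0096), Gapdh (−0.064) and Pkm (−0.019) between APP_WT and WT and Ldha in HOE_APP (0.013), none of them called, and moved the median of the members to 0.026 in BK_APP and 0.036 in HOE_APP. With the HOE_APP sign turned, the median became 0.077, that of the difference between treatments −0.11, and Slc16a3 0.42, Hk2 0.25, Gpi1 0.17, Aldoa 0.17, Ldha 0.14, P4ha1 0.19 and P4ha2 0.18, with the difference for Slc16a3 at −0.52. Without 1 array the medians of the members were 0.00051 to 0.082 for APP_WT, −0.070 to −0.019 for BK_APP, −0.084 to −0.074 for HOE_APP and 0.013 to 0.081 for the difference. Neither treatment called a member under any alternative run.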
